A study of Mus musculus with 48 samples.

Results

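The genes for the proteins of the cytosolic ribosome were followed across 48 single mouse cells. They were taken as the gene symbols made of Rpl or Rps, a number and at most a short suffix, together with Rplp0, Rplp1, Rplp2, Rpsa and Rpl36al. This gave 85 of the 23284 symbols in the table: 49 of the large subunit, 3 of the P stalk, the lateral arm of the large subunit that recruits elongation factors, and 33 of the small subunit. All cells came from embryonic stem cells of strain 129P2/OlaHsd with a doxycycline-inducible Mesp1, a transcription factor of early cardiovascular mesoderm. They were differentiated as embryoid bodies for 4 days, with doxycycline at 500 ng/ml between day 2.25 and 3.25. Live cells, which exclude propidium iodide, were then sorted, and a Fluidigm C1 chip isolated them one by one. The 48 cells form 1 group, with no uninduced cells and no second culture named, so they stand as 1 sample: levels and correlations are descriptions, and no p-value was made.

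The cytosolic ribosome joins a small subunit, which reads the messenger RNA, to a large subunit, which forms peptide bonds, and nearly every ribosomal protein is needed in a single copy per ribosome. Their mRNAs are among the most abundant in growing cells, and many begin with a run of pyrimidines, the terminal oligopyrimidine (TOP) motif, through which mTOR signalling controls their translation as a group. Mammalian genomes carry many processed pseudogenes of these genes, and a few intact paralogues with expression in particular tissues, such as Rpl3l in muscle and Rpl10l in testis.

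Values are FPKM, fragments scaled to transcript length and to the mapped fragments of the library, so levels of different genes can be compared per length. The FPKM sum of a cell lay between 480821 and 12864400, or between 414465 and 703476 once 787 symbols of short RNAs, whose FPKM can be very large, were left out. Between 4788 and 7010 genes reached 1 FPKM in a cell (median 6212), which is the level called detected here. Depth is unknown, because the table holds no counts. The labelled mesoderm identity was uneven at the RNA level. Each of 9 nascent mesoderm markers was detected in some cells, from Kdr in 22 cells to Fn1 in 47 and Mesp1 in 30, and the 9 summed to between 53.1 and 1062 FPKM per cell. None of 4 blood markers reached 1 FPKM in any cell, nor did 2 of 3 endothelial and 3 of 4 cardiomyocyte markers. Pluripotency genes were also uneven: Nanog was detected in 46 cells, Pou5f1 in 26, Dppa5a in 21, Sox2 in 18, Zfp42 in 14 and Esrrb in 6. These 6 markers summed to between 1.01 and 4052 FPKM per cell, and Dppa5a alone reached 3538 FPKM. Of 4 endoderm markers, Foxa2 was detected in 12 cells.

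For 4 ribosomal protein genes the table holds a second, nearly identical row at a level of 100 FPKM or more. These sequences are shown because the values of the 4 genes are set beside those rows below. Coordinates and coding sequences are those of GENCODE M21 on GRCm38, positions are counted from 1 at the first coding base, and capitals mark the base at which gene and copy differ. Rpl26 (chr11:68901583-68906989) encodes a large-subunit protein near the exit of the peptide tunnel. Its copy Gm15772, annotated as a processed pseudogene (chr5:3236431-3236868), differs at 2 of 435 coding bases, C177T and T288C, of which the first is shown.
Rpl26: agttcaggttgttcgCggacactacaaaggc
Gm15772: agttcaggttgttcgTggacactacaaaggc
Rpl30 (chr15:34440505-34443640) encodes a large-subunit protein, and the processed pseudogene Gm12191 (chr11:49678710-49679057) differs from it at 1 of 345 coding bases, G96A.
Rpl30: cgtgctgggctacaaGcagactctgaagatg
Gm12191: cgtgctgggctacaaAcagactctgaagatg
Rpl34 (chr3:130726831-130730398), another large-subunit gene, and Rpl34-ps1, a processed pseudogene (chr6:71124610-71124963), differ at 2 of 351 coding bases, T132C and C318G, of which the first is shown.
Rpl34: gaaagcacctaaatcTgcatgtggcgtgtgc
Rpl34-ps1: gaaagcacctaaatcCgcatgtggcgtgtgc
Rps27 (chr3:90212522-90213651) encodes a zinc-finger protein of the small subunit. Gm9846 (chr9:114982366-114982739), annotated as protein coding, has the same coding sequence with 0 differences over 252 bases, so a read within it fits both rows.
Rps27 and Gm9846: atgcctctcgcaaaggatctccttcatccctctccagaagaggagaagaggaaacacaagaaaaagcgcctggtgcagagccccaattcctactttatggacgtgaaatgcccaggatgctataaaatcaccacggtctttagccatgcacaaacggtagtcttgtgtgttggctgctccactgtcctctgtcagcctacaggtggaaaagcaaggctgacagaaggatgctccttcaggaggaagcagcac

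With short RNA rows left out, ribosomal protein genes took a large and steady part of the FPKM of every cell. Their FPKM summed to a median of 29.98% of the FPKM of a cell without short RNA rows, with a lowest value of 26.1% in the cell of capture number 81 and a highest of 35.2% in that of capture number 75. Large-subunit genes held a median of 16.1%, the 3 stalk genes 1.30% and small-subunit genes 12.7%. The ratio of the small-subunit sum to the sum of large subunit and stalk stayed between 0.670 and 0.817 (median 0.733). The Spearman correlation of the share with the number of detected genes was -0.13 over 48 cells, and 0.08 and 0.12 within cells of capture number up to 48 and above. The share correlated at 0.43 with the FPKM sum without short RNA rows, at 0.59 in cells of capture number up to 48 and at 0.22 above, and the part of this sum in the share was not tested. Its correlation with Mesp1 FPKM was 0.23. The share was somewhat higher in cells with capture numbers above 48 (median 30.96%, 23 cells) than in the others (29.2%, 25 cells), and the ranges of the 2 sets overlapped widely.

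Of the 85 genes, 79 were detected in all 48 cells. Among all 16677 symbols above 0 in any cell, the percentage detected in every cell was 6.96. The median of the 85 gene medians was 1584 FPKM, 62 genes had a median of at least 1000 FPKM and 78 of at least 100 FPKM. Among the 50 symbols of highest median, short RNAs aside, 36 were ribosomal protein genes.

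The highest of all was Rpl41, whose product is a very short basic peptide of the large subunit. It ranged from 6680 to 14556 FPKM around a median of 10088.5, and ranked 1 among all symbols that are not short RNAs. Its coding sequence has only 75 bases, and FPKM of such short messages depends on how the effective length was set, which no source used here states. Next in the large subunit came Rpl35, a protein at the tunnel exit, at 3320 to 7208 FPKM (median 4793), and Rpl32, at 2923 to 6822 FPKM (median 4757). These 2 neighbours in the order overlapped over almost their whole range.

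In the small subunit Rps20, a protein of the head of the subunit, stood highest at 3149 to 8355 FPKM (median 5320). Rps18 followed at 2749 to 7289 FPKM (median 4982), and Rps14, a protein of the platform, at 3043 to 6563 FPKM (median 4813). The 3 ranges overlapped, so their order is that of medians only. The stalk genes were of middling level: Rplp0, the stalk base, had a median of 3115 FPKM (1862 to 5115), Rplp1 of 2129 (1067 to 3017) and Rplp2 of 1810 (1311 to 2933). Rpsa, which also codes for a laminin-binding protein, had a median of 1073 FPKM (642 to 1548). Rps27a, made as a fusion with ubiquitin, had a median of 1819 FPKM (1094 to 2872).

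**Figure D1:**
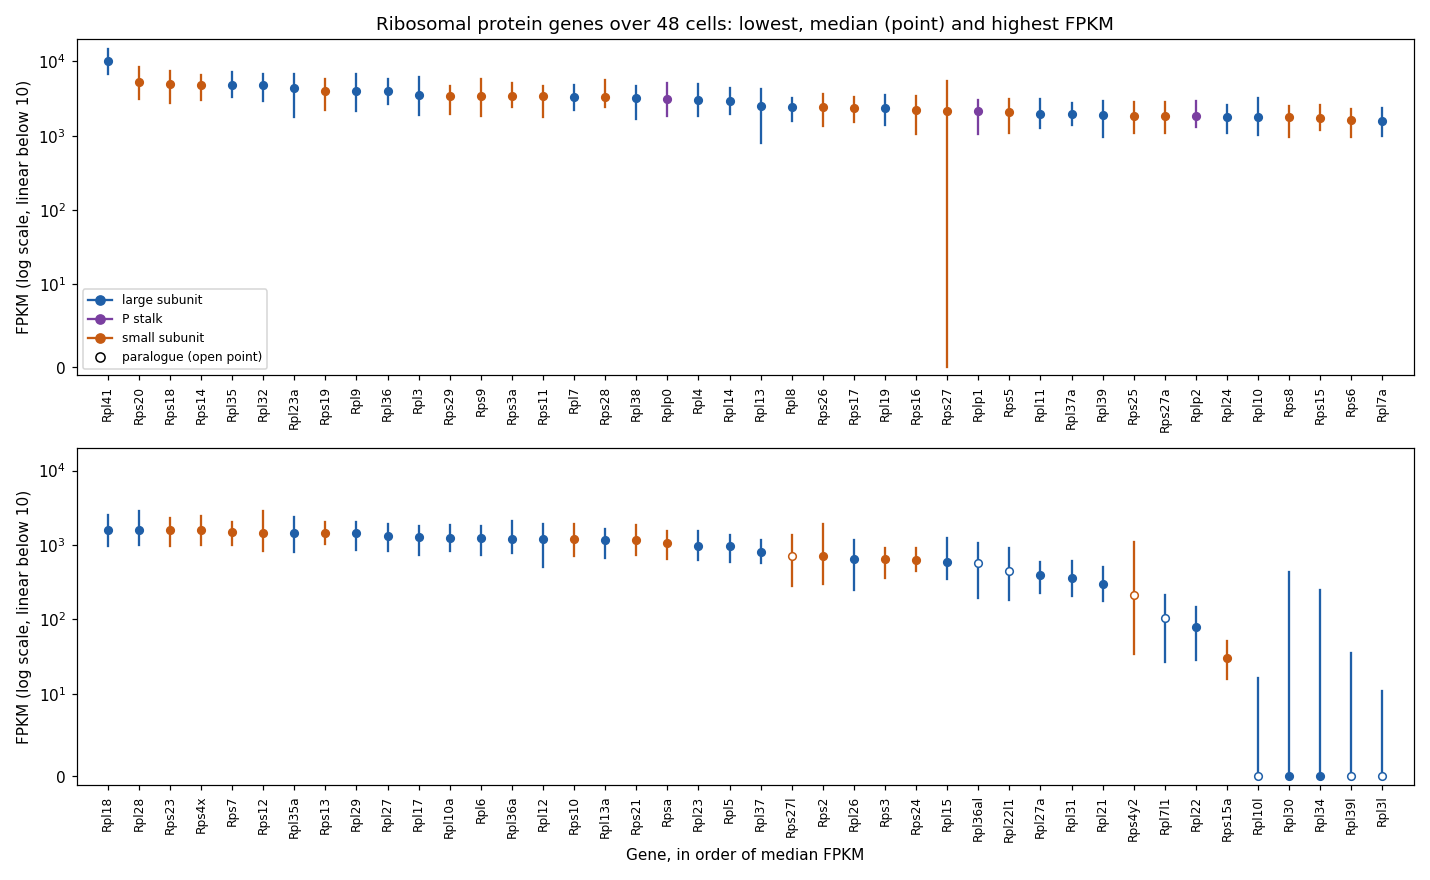
Level of 84 ribosomal protein genes in 48 cells, in order of median: the point is the median FPKM, the line runs from the lowest to the highest cell, colours mark the subunit and open points the paralogues. The vertical axis is logarithmic above 10 FPKM and linear below; most lines lie wholly above 100 FPKM, and the line of Rps27 reaches 0.

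In all, 8 ribosomal protein genes had a median under 10% of the family's median level, that is under 158.4 FPKM. They were 4 of the paralogues (Rpl3l, Rpl10l, Rpl39l and Rpl7l1), the pair Rpl30 and Rpl34 whose copies are shown above, and Rps15a and Rpl22. Rpl7l1 (median 105 FPKM) was the member just inside this limit, and Rps4y2 (216 FPKM) and Rpl21 (299.6 FPKM) were the first outside. Rps15a, a small-subunit protein, was detected in every cell but only at 15.6 to 51.9 FPKM (median 30.1). Its coding sequence has 6 near-identical annotated genes, of which Rps15a-ps4 (median 17.2 FPKM) and Rps15a-ps6 (median 21.3 FPKM) have rows of their own. The other 4 have none, and whether any reads of this gene were counted elsewhere is not known.

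That situation was general. Of the 85 genes, 78 have at least 1 annotated gene whose sequence matches theirs at 95% identity or more over at least 90% of the coding length. The median was 5 such genes and the largest number 56, for Rpl21. Only 16 of these copies, of 15 ribosomal protein genes, had a row in the table. Levels of the 78 genes are therefore uncertain to the extent that reads were shared with a copy. How reads matching several places were treated is not given in the sources used here.

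Of the 16 copy rows, 4 reached a median of 100 FPKM, and all 4 ran against their gene over the cells. Rpl30 was listed at 0 in 28 cells and stood at 112 to 430 FPKM in the other 20, with no value in between. Gm12191 held 1144 to 2127 FPKM in the cells where Rpl30 was at 0 and 869 to 1752 FPKM where it was not. The sum of the 2 rows ran from 1032 to 2127 FPKM, and the Spearman correlation between the rows was -0.46. The SD over the mean was 1.36 for Rpl30, 0.21 for Gm12191 and 0.18 for the sum, so the sum varied only slightly less than the copy. The copy, not the gene, followed the rest of the family: its Spearman correlation with the family score, the mean z-scored log2 level of the ribosomal protein genes, was 0.49, against -0.21 for Rpl30.

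Rpl34 showed the same form. It was listed at 0 in 34 cells and stood at 94.6 to 250 FPKM in 14, while Rpl34-ps1 was above 0 in every cell, at 1086 to 2960 FPKM. Again no cell lay in between. The correlation of Rpl34-ps1 with the family was 0.61, and that of Rpl34 was -0.08.

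Rps27 and its identical copy were the pair with the most similar levels. Rps27 had a median of 2157 FPKM, was listed at 0 in 7 cells and reached 5478 FPKM in another. In those 7 cells Gm9846 stood at 3648 to 5395 FPKM. Gm9846 was in turn listed at 0 in 2 cells, where Rps27 stood at 4478 and 5478 FPKM, and no cell had both at 0. The rows correlated at -0.60. Their coefficients of variation, the SD over the mean, were 0.63 for Rps27 and 0.45 for Gm9846, and that of the sum was 0.20. The sum also followed the other ribosomal protein genes more closely (0.79) than did Rps27 (0.54) or Gm9846 (0.08).

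Rpl26 was never at 0. It ranged from 249 to 1179 FPKM (median 642) and Gm15772 from 969 to 2631 FPKM (median 1840), with a correlation of -0.27. Summing the rows brought the coefficient of variation from 0.35 for Rpl26 and 0.24 for Gm15772 to 0.17, and the correlation with the family from 0.21 and 0.55 to 0.70. In all 4 pairs the sum of the rows thus varied less than either row alone. Whether reads were shared between the rows was not tested.

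The other 12 copy rows were low, with medians from 0 to 93.7 FPKM. Of these, 9 correlated positively with their gene and 7 at 0.5 or more. The largest correlation, 0.85, was that of Rpl22l1 with Gm15421 (median 15.6 FPKM).

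**Figure D2:**
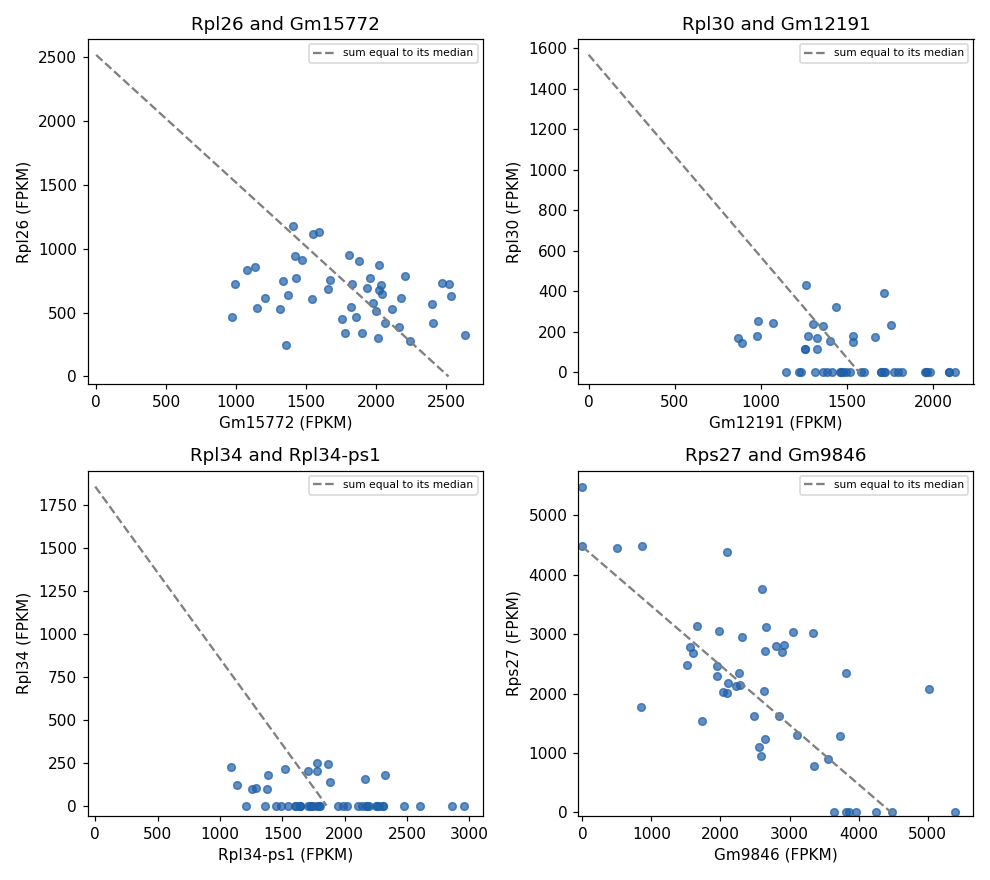
FPKM of 4 ribosomal protein genes (vertical axes) against that of a near-identical row (horizontal axes), 1 point per cell; on the dashed line the sum of both rows equals its median over 48 cells. Rps27 and Gm9846 spread along the line, each at 0 in some cells, while Rpl30 and Rpl34 lie at 0 in 28 and 34 cells.

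Most single ribosomal protein genes varied little in level between cells. For the 80 genes detected in at least 40 cells the median coefficient of variation was 0.21, and 72 of them were under 0.3. The lowest was 0.16, for Rpl35. The highest were 0.84 for Rps4y2, 0.63 for Rps27, 0.45 for Rps2 and 0.42 for Rpl7l1, of which only Rps27 is in the pairs above. The median coefficient of variation over all 6266 genes that averaged 5 FPKM or more and were detected in 5 cells or more was 1.10. That set was not matched to the family's level, and short RNA rows were not left out of it.

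Measured against a trend of variability on the mean level, 8 of the 82 ribosomal protein genes that could be tested exceeded it more than 2-fold, or 9.76%. The percentage over all genes was 10.5, so the family's count is near the background. The members were Rps27 (8.80-fold above the trend), Rpl30 (4.49-fold), Rpl34 (4.44-fold), Rps4y2 (3.81-fold), Rps20 (2.44-fold), Rps2 (2.43-fold), Rpl13 (2.16-fold) and Rpl41 (2.06-fold). Rps20 and Rpl41 have coefficients of variation of only 0.24 and 0.18, and pass because the trend is low at their level. With the copy rows added to their genes the count was 5.

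The 80 genes varied together from cell to cell. Over their 3160 pairs the mean Spearman correlation of log2(FPKM + 1) was 0.41, and 96.4% of pairs were positive. The mean over all pairs of the 3024 genes detected in at least 40 cells was 0.02, and over the 80 non-member genes of highest median it was 0.16. All points come from the same 48 libraries, and the FPKM total of a library enters every gene. The family score, the mean of the z-scored log2 values of the 80 genes, correlated at 0.93 with the FPKM sum of the cell without short RNA rows, and at 0.79 with that sum when the family's own rows were left out too.

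The amount of this coordination depended on the scaling. When each cell was rescaled to an equal sum without short RNA rows, the mean was 0.10, with 71.6% of pairs positive, beside 0.01 for all genes and 0.01 for the 80 non-member genes of highest level. The family holds a median of 29.98% of that sum, so equal sums remove part of its common variation by construction. With the family's rows also left out of the sum it was 0.21, with 84.2% of pairs positive, beside 0.01 for all genes. When all rows, short RNAs included, entered the sum, it was 0.67, beside 0.32 for all genes and 0.58 for the 80 non-member genes. The mean was above that over all genes under each of the 4 scalings.

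The scores of the subunits varied together. The score of large-subunit and stalk genes correlated with that of small-subunit genes at 0.96 over 48 cells, at 0.82 after rescaling to equal sums and at 0.90 with the family left out of the sum. Each score averages many genes, and such averages correlate more highly than single pairs do. These values therefore cannot show a link particular to the 2 subunits. Within cells of capture number up to 48 the deposited values gave 0.97 (25 cells), and above 48 they gave 0.96 (23 cells). After rescaling to equal sums the same 2 sets of cells gave 0.82 and 0.76. Pairs across the subunits had a mean correlation of 0.41, pairs within the large subunit and stalk 0.41 and pairs within the small subunit 0.43. After rescaling to equal sums these means were 0.10, 0.10 and 0.12. The family score correlated at 0.04 with the number of detected genes, and at 0.21 with the capture number. It correlated at -0.25 with the score of the nascent mesoderm markers and at 0.18 with that of the pluripotent markers, and after rescaling at -0.15 and -0.01. In all, 24 relations of the family score or share were computed.

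**Figure D3:**
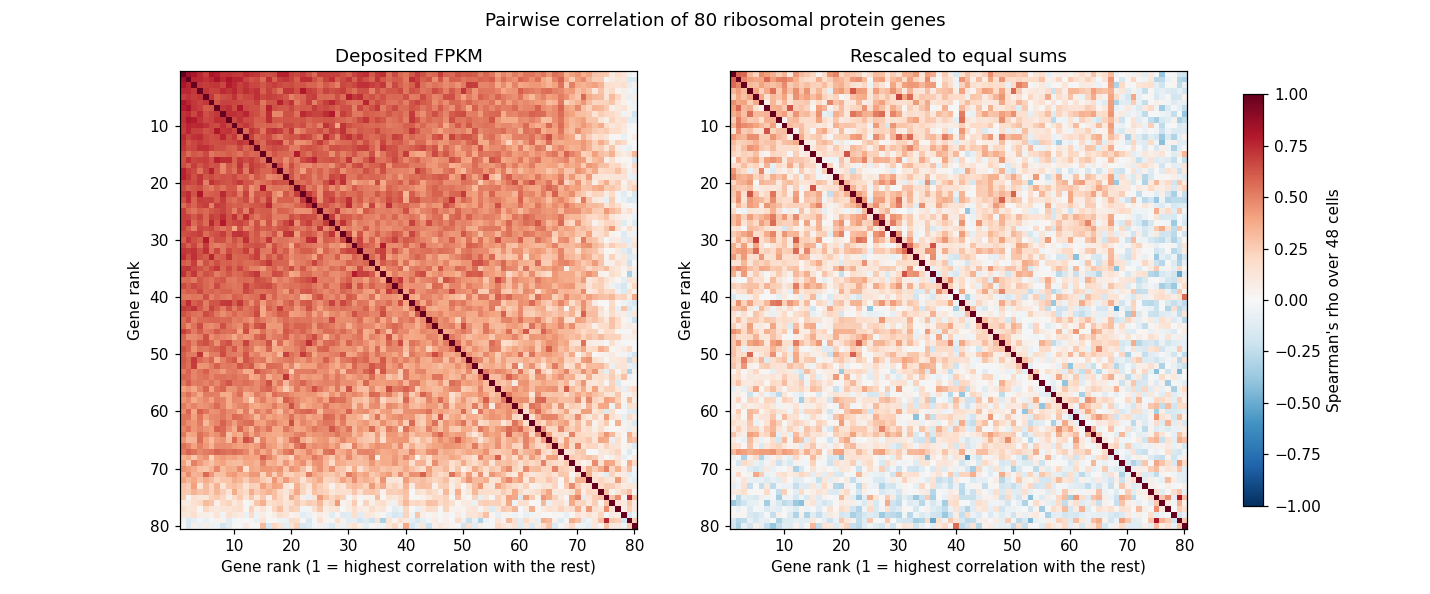
Spearman correlation between each pair of 80 ribosomal protein genes over 48 cells, from deposited FPKM (left) and after each cell was rescaled to an equal sum without short RNA rows (right). Genes are ordered on both sides by their correlation with the rest in deposited FPKM; the mean over pairs was 0.41 on the left and 0.10 on the right, and the last few ranks stay pale on both.

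Each gene was then set against the score of the other 79. The median of these correlations was 0.68, and 67 of the 80 genes reached 0.5. Among 2944 non-member genes the percentage that reached 0.5 with the family score was 1.19. Rps18, a protein of the head, led with 0.89 and was followed by Rps14 (0.85) and Rps26 (0.84), all 3 of the small subunit. Rps23, whose product sits at the decoding centre, was at 0.83. After rescaling the median was 0.36.

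In all, 3 genes were under 0.2 with the rest: Rps4y2 at 0.03, Rps2 at 0.05 and Rpl7l1 at 0.08. Among non-member genes 73.9% were under 0.2. Just above the limit came Rpl26 (0.21), whose copy row is Gm15772, Rpl7a (0.24) and Rpl13 (0.27). After rescaling 21 of the 80 were under 0.2, beside 94.8% of non-member genes, and these 6 were among them. With the family left out of the sum they were 12, again with all 6 included.

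**Figure D4:**
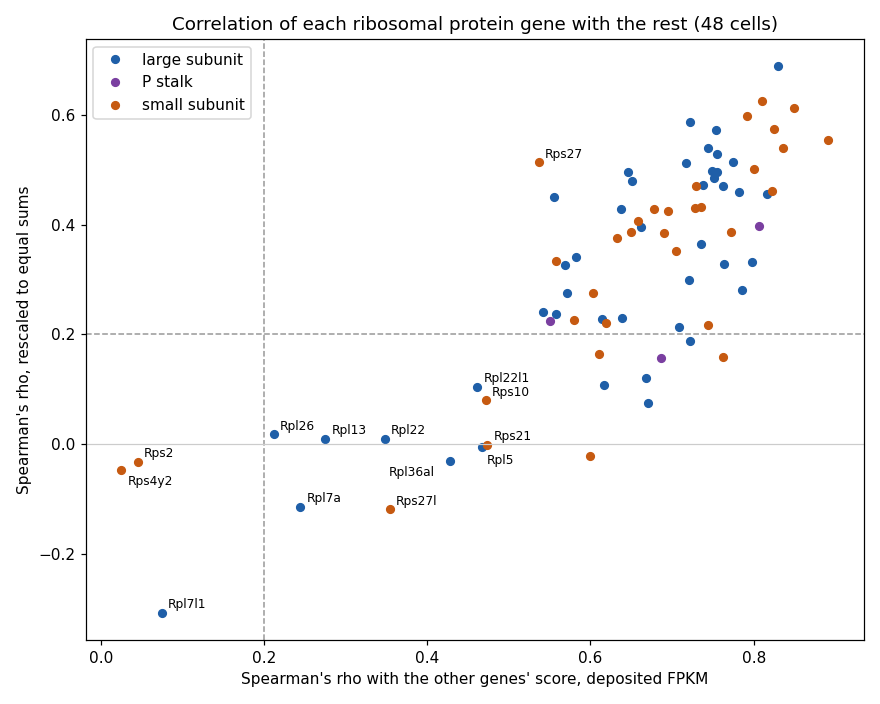
Spearman correlation over 48 cells of each of 80 ribosomal protein genes with the score of the others, in deposited FPKM (horizontal axis) and after rescaling to equal sums (vertical axis); dashed lines mark 0.2. Rps4y2, Rps2 and Rpl7l1 lie left of the line, and the main cloud lies above 0.5 on the horizontal axis.

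Rps2 and Rpl13 had low correlations with the rest of the family (0.05 and 0.27) but not with each other. Rps2, a small-subunit protein at the mRNA entry, ranged from 298 to 1919 FPKM (median 713). Rpl13, a large-subunit protein, ranged from 802 to 4177 FPKM (median 2503). Both were lowest in the cell of capture number 90 and highest in that of capture number 69. They correlated at 0.75 over 48 cells, at 0.81 after rescaling and at 0.80 with the family left out of the sum, which ranked 26 of the 3160 pairs in deposited FPKM and 1 on both rescaled scales. It was 0.73 in the 25 cells of capture number up to 48 and 0.76 in the other 23, and 0.72 without the 2 cells farthest from the Rps2 median.

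No other ribosomal protein gene came near this with Rps2. The next were Rps10 and Rpl18 at 0.37, and the lowest were Rpl7 at -0.32 and Rpl35a at -0.31. With Rpl13 the next were Rpl5 at 0.50 and Rpl26 at 0.46. The pair of Rps2 and Rpl13 was singled out after its values were seen. Some genes outside the family came closer to both than any other ribosomal protein gene did. Pfn1, the actin-binding profilin, correlated at 0.75 with Rps2 and 0.79 with Rpl13, and ranged from 176 to 1107 FPKM. Cox5a, a subunit of cytochrome c oxidase, correlated at 0.66 and 0.77, and Hmgn1, a nucleosome-binding protein, at 0.66 and 0.71. Pfn1 and Hmgn1 in turn correlated at 0.78. Rps2 correlated at -0.07 with the capture number and at 0.09 with the number of detected non-member genes, and Rpl13 at -0.17 and 0.30. Rps2 has 24 near-identical annotated genes and Rpl13 has 7, none with a row, and their part in the pattern was not tested.

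Paralogues fell into 2 kinds, those nearly silent in these cells and those read in all of them. Rpl3l, the form of heart and skeletal muscle, reached 1 FPKM in 1 of 48 cells (2.08%, exact Clopper-Pearson 95% interval 0.0527 to 11.1%), at 10.8 FPKM. Rpl10l, the testis form of Rpl10, was detected in 3 cells (6.25%, 1.31 to 17.2%) with a maximum of 16.3 FPKM. Rpl39l, also known from the male germ line, was detected in 4 cells (8.33%, 2.32 to 19.98%) with a maximum of 35.05 FPKM. The intervals cover counting error only and take the cells as independent. The detections of these genes fell in the same few cells. Rpl10l and Rpl39l were both detected in the cells of capture number 5, 32 and 38, and Rpl3l in that of 38. The remaining detection of Rpl39l was in the cell of capture number 39. The partners Rpl3, Rpl10 and Rpl39 had medians of 3518, 1788 and 1923 FPKM over all 48 cells.

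The other 5 paralogues were detected in all 48 cells. Rpl22l1 was the exception to the usual order, standing above its partner Rpl22 in 48 of 48 cells. Rpl22l1 ranged from 183 to 920 FPKM (median 443), and Rpl22, an RNA-binding protein of the large subunit that is not essential for it, from 28.4 to 145 FPKM (median 79.7). Within single cells the ratio ran from 2.32 to 15.6, with a median of 5.33. The 2 levels were nearly unrelated (0.08 over 48 cells). The paralogues share 70.1% of their aligned coding bases. Rpl22l1 has 2 near-identical annotated genes and Rpl22 has 1, and their part in the ratio was not tested.

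Rpl36al, an autosomal twin of the X-linked Rpl36a, stood below it in 48 of 48 cells. Rpl36al had a median of 580 FPKM (195 to 1054) and Rpl36a of 1220 FPKM (768 to 2098), with a median ratio of 0.52 and coding identity of 87.9%. Rpl7l1, a pre-ribosome factor related to Rpl7, had a median of 105 FPKM (26.9 to 215) against 3289 FPKM for Rpl7 and never came near it, with a highest ratio of 0.07. Rps4y2 is annotated under the newer symbol Rps4l as a transcribed processed pseudogene, related to Rps4x. It had a median of 216 FPKM against 1567 FPKM for Rps4x, and ranged from 34.6 to 1103 FPKM. Its coefficient of variation of 0.84 was the largest of the 80 genes. The highest values were 1103 and 1010 FPKM, in the cells of capture number 5 and 38, and the next cell stood at 596 FPKM. Rpl10l and Rpl39l were both detected in these highest cells too. The part of these cells in the variation of Rps4y2 was not tested. Rps4y2 correlated at -0.30 with the capture number and at 0.36 with the number of detected non-member genes, and the part of either was not tested. Rplp2 was the ribosomal protein gene closest to it, at 0.38, or 0.56 after rescaling.

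Rps27l, a p53 target in other settings, had a median of 720 FPKM (285 to 1376). It exceeded Rps27 in 8 cells, and in 7 of these Rps27 was listed at 0 beside a high Gm9846. Over 48 cells Rps27l correlated at 0.32 with the p53 target Ccng1 and at 0.21 with Bax, but at -0.03 with Cdkn1a and 0.02 with Mdm2. Its correlation with Rps27 was 0.00 to 2 decimals. Of the 5 paralogues read in every cell, all were under 0.5 in their correlation with the rest: Rpl22l1 at 0.46, Rpl36al at 0.43, Rps27l at 0.35, Rpl7l1 at 0.08 and Rps4y2 at 0.03. Their levels are also below the family median, and over the 80 genes the median level correlated at 0.51 with the correlation with the rest.

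**Figure D5:**
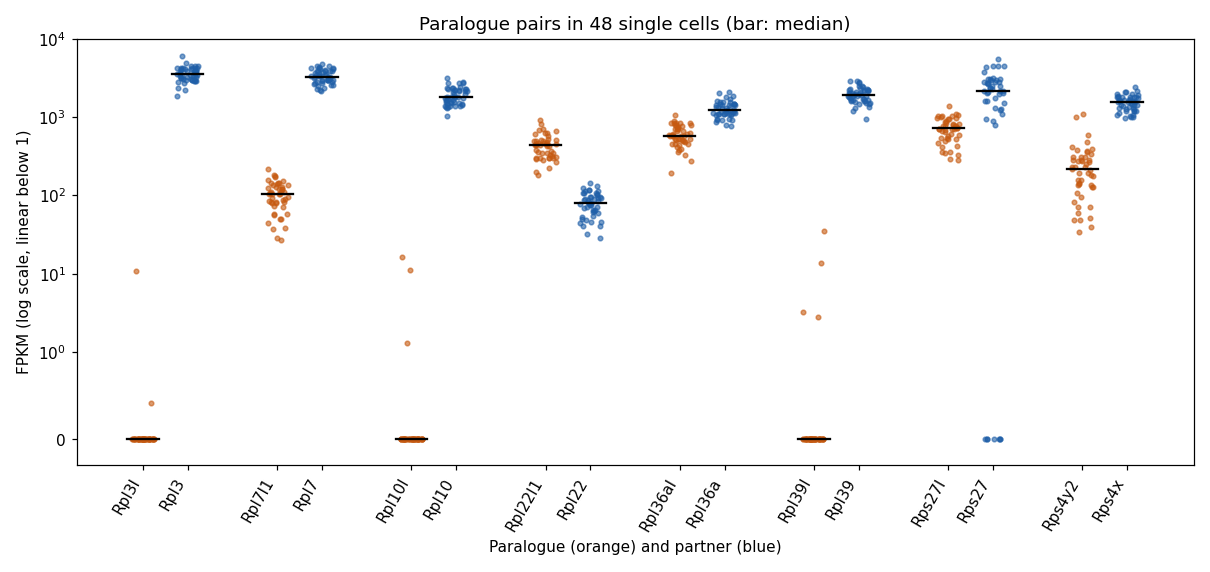
FPKM of 8 paralogues (orange) and their partners (blue) in 48 cells, 1 point per cell with the median as a bar; the vertical axis is logarithmic above 1 FPKM and linear below. Rpl3l, Rpl10l and Rpl39l lie at 0 in most cells, Rpl22l1 lies above Rpl22, and Rps27 is at 0 in 7 cells.

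Genes of other parts of the translation machinery were set against the family score 1 by 1, and then as lists. Fau, a ubiquitin-like fusion that releases a small-subunit protein and falls outside the naming rule, had a median of 1252 FPKM and correlated at 0.66 with the family score. Of 7 elongation factors, 1 reached 0.5: Eef1a1, which brings aminoacyl-tRNA to the ribosome (0.63, median 6282 FPKM). Eef1g had 0.46 and Eif5a, which helps at stalled prolines, 0.07. Of 13 further genes with TOP mRNAs 4 reached 0.5, namely Btf3 (0.64), Gnb2l1 (0.64), Naca (0.61) and Npm1 (0.52). Gnb2l1 codes for RACK1, which sits on the small subunit, and Btf3 and Naca form the complex that shields nascent chains.

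None of 22 initiation factors reached 0.5, with a highest value of 0.49, and none of 19 ribosome biogenesis factors did, with a highest of 0.41. Of 70 mitochondrial ribosomal proteins, 1 did, Mrpl40 at 0.64. The medians were 0.16, 0.07 and 0.12, beside 0.08 over 2939 non-member genes, a set without the 5 rows named as ribosomal protein pseudogenes among the 2944. In deposited FPKM the scores of whole lists, which average many genes, had higher correlations than the median of their single genes. The list score correlated at 0.74 for the other TOP mRNAs, 0.52 for initiation factors, 0.50 for mitochondrial ribosomal proteins, 0.42 for elongation factors and 0.24 for biogenesis factors. After rescaling to equal sums these were 0.09, -0.32, -0.19, -0.46 and -0.21, and with the family left out of the sum 0.40, -0.10, -0.05, -0.22 and -0.09. The sign of 4 of the 5 lists thus changed with the scaling, and that of the other TOP mRNAs did not. Within these lists genes were also less coordinated: the mean pairwise correlation was 0.17 for elongation factors, 0.12 for the other TOP mRNAs, 0.07 for biogenesis factors, 0.05 for mitochondrial ribosomal proteins and 0.04 for initiation factors. These lists have lower levels than the ribosomal protein genes, with medians between 49.9 and 413 FPKM.

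Among the 2939 genes outside the family, rows named as ribosomal protein pseudogenes left out, the closest to its score were Gm5148 (0.76), Cox6c (0.75), Fau (0.66), Tcp1 (0.65), Mrpl40 (0.64), Btf3, Gnb2l1, Eef1a1, Atp5j and Psmb3 (0.63). Cox6c and Atp5j belong to oxidative phosphorylation, Tcp1 to the chaperonin and Psmb3 to the proteasome. With the family left out of the rescaling sum Gm5148 was at 0.53 and Cox6c at 0.48, Eef1a1 at 0.26 and Atp5j at 0.17. The lowest were Gm17821 (-0.54), G530011O06Rik (-0.48), F2r (-0.46), A130077B15Rik (-0.45) and Cdk12 (-0.45), which after that rescaling stood between -0.30 and -0.06.

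Promoters were compared because the genes moved together. RefSeq promoters on GRCm38.p6, 300 bases from 250 before to 50 after the annotated start, were found for 64 of the 85 genes, 76 promoters in all. A pyrimidine run was here a C followed by at least 4 bases that are each C or T. Only the stretch from 10 before to 15 after the start on the gene's strand was searched. A longer run that begins farther upstream counts if enough of it lies in that stretch. Such a run was present in 53.9% of the 76 promoters and in 30.7% of all 32851 promoters. The letters CCGGAAG, a core bound by ETS factors, were found on either strand in 35.5%, against 8.86% of all promoters. AAGATGGC, the core of YY1 sites, was found in 10.5% against 2.75%, and TATAAA in 9.21% against 13.6%. A match is a description of letters and not a site in use. Windows of 40 bases are shown, with capitals marking the pyrimidine run: Rpl38 (chr11:114668555-114668594, plus strand), Rps6 (chr4:86857353-86857392, minus strand) and Rplp2 (chr7:141447626-141447665, plus strand), which hold it, and Rpl7l1 (chr17:46782642-46782681, minus strand), which does not.
Rpl38: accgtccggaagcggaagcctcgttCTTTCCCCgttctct
Rps6: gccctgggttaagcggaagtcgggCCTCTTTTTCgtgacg
Rplp2: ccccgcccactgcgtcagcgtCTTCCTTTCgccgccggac
Rpl7l1: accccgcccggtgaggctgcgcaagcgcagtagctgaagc
Rpl38, a small protein of the large subunit, and Rps6, the classic target of S6 kinase, correlated with the rest of the family at 0.75 and 0.82, and Rplp2 at 0.69. The 4 windows are examples, and the run did not sort the genes. Rplp0 (0.81) and Rpl41 (0.75) hold none, while Rpl7a (0.24) holds one. A run was present in 55.6% of the promoters of paralogues and in 53.7% of those of the other members. Its relation to the correlation with the rest was not tested. The window of Rps2 also holds a run in the searched stretch. That of Rpl13 was not counted, but it does hold a pyrimidine run that begins farther upstream, of which too little lies in that stretch.

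Other features of the genes were weakly related to their values. Over the 80 genes the coding length correlated at -0.07 with the median level and at -0.07 with the correlation with the rest, and the number of near-identical genes at -0.01 and 0.17. A snoRNA gene lies within 30 of the 85 genes. The 29 of these hosts that were among the 80 had a median correlation with the rest of 0.69, against 0.68 for the 51 others. The 85 genes are spread over 19 chromosomes.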

How the data were processed

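Single-cell RNA-seq values of 48 cells were taken from 1 table deposited by the authors, with 23746 rows and 23284 symbols, of which the 240 found on several rows were summed. The deposited table names no unit, and its values were read as FPKM because Cufflinks (2.2.1.0) appears in the submitters' processing notes. The notes also list mm10, TopHat (0.7) and CASAVA (1.8.2) without saying how each was used. Annotation, read filters and treatment of reads with several matches were not given in the sources used here. Numbers in the cells' titles were read as capture numbers.

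Detection was 1 FPKM or more. Correlations are Spearman's on log2(FPKM + 1) over cells, and scores are means of z-scores. Rescaling set each cell to a sum of 1000000. Excess variability compared each gene's squared coefficient of variation with a local regression on the mean (span 0.4), and a gene was called above 2-fold. Near-identical genes were found with blastn 2.17.0, at 95% identity and 90% coverage. All other values used Python 3.11.15, numpy 2.4.6, pandas 2.3.3, scipy 1.17.1 and statsmodels 0.14.6. The procedures were tested on simulated data.

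The genes and lists were chosen with earlier results of these data known. Named genes are the highest and lowest by level, by correlation with the rest and by likeness, the paralogues with their partners, genes with excess variability, genes listed at 0 despite a median over 100 FPKM, and the highest of each list; a few such genes are not reported here. Rpl38, Rps6, Rpl35a, Rpl5, Rpl7, Rps10, Rpl18, Rpl21, Pfn1, Cox5a and Hmgn1 were named after their values were seen. No cell was removed and no doublet caller was run, as the table holds no counts. Depth is unknown.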

Additional observations from a re-analysis of the deposited data

How the results depend on the processing

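Of 91 alternatives, 75 left their result within the limits set (0.1 for a correlation, 1.5-fold for a count, 1 SD over cells for the share), 16 moved it and 0 reversed it. Reversal was defined only for a correlation of at least 0.1 in size that changed sign. Counts, the share and the correlation with detected genes could therefore not reverse. A changed pseudocount cannot alter rank correlations between genes, so the mean pairwise correlation was bound to stay the same under it. Rescaling moved most. Mean pairwise correlation (0.41 as deposited) was 0.103 without short RNA rows, 0.209 without short RNA and family rows and 0.667 with all rows. On the same 3 scales the genes under 0.2 with the rest (3) were 21, 12 and 0, and the correlation of large with small subunit was 0.82 on the first. With all rows the family's share was 25.8%, its score correlated at 0.420 with detected genes (0.04 as deposited), and 3 genes, not 8, had excess variability. That correlation with detected genes was also 0.207 at a detection level of 10 FPKM and 0.316 in cells of capture number up to 48. Genes under 0.2 with the rest were 6 without the filter on low genes and 6 in cells of capture number above 48. Genes with excess variability were 5 with copies added, and genes under 10% of the family level were 4 without paralogues. The causes were not tested, except that leaving out paralogues removes 4 of those 8 genes by construction. Adding copies and rescaling without the family's rows were chosen after seeing the data. No paired analysis was possible because all cells form 1 group. Without counts, transcripts lost in a cell cannot be told apart from absent ones.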

Other observations

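The genes least like the ribosomal protein genes are picked extremes of 2939 values on 1 scale, and whether they exceed chance was not tested. With the family's own rows left out of the rescaling sum, the lowest correlations with the family score were those of Gdi2 (-0.51), a regulator of Rab GTPases, Tubb6 (-0.51), a beta tubulin, Phb (-0.48), a scaffold of the inner mitochondrial membrane, Sephs1 (-0.48), and Brd3 (-0.47), a reader of acetylated histones. Their medians were 232, 194, 142, 26.9 and 49.3 FPKM. In deposited FPKM the same genes stood between -0.34 and 0.01. On that rescaled scale 46.1% of 2939 genes were positive, against 69.4% in deposited FPKM.

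The extremes of the family gathered in few cells. The cell of capture number 75 held the highest FPKM of 18 ribosomal protein genes and the cell of capture number 12 the lowest of 19. The FPKM sums of these cells without short RNA rows were 630780 and 414465, the latter being the lowest of all 48 cells. Of the Myc family, whose members drive ribosome production in other settings, Mycn was detected in 41 cells (median 25.8 FPKM) and Myc in 30 (median 11.3 FPKM). Mycn correlated with the family score at -0.04 in deposited FPKM and at 0.18 with the family left out of the rescaling sum, and Myc at -0.29 and -0.17.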
